A study of Mus musculus with 24 samples.

Results

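The cytokines of the Il12 family are built from shared subunits, and the RNA of the 5 subunit genes Il12a, Il12b, Il23a, Il27 and Ebi3 was followed in mouse bone marrow-derived macrophages (BMDMs). The members were the rows of the deposited expression table whose gene name equalled one of these symbols. All 5 were found among 24273 genes, and all 5 were among the 13901 genes that passed a filter on low values. RNA sequencing covered 24 libraries in 8 groups of 3. These macrophages, which had been differentiated in culture, came from C57BL/6 mice labelled LysM-Cre (the controls) or FosKO, in which Fos flanked by loxP sites (Fos fl/fl) was to be deleted by the same LysM-Cre. The series' design gives the controls as LysM-Cre, whereas the text of the study gives them a floxed Fos allele beside a wild-type one, and the values cannot settle which applied. Cells were left untreated (0 h) or received lipopolysaccharide (LPS, a bacterial ligand of the receptor TLR4) at 100 ng/ml for 0.5, 1 or 2 h, after a night in 1% serum. By their labels all 8 groups thus carried LysM-Cre, a Cre recombinase placed in the lysozyme gene Lyz2 and expressed in myeloid cells. Deletion therefore depends on how many cells of a culture used it. The age of the mice, and which libraries came from the same animal, are not given in the sources used here.

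Each cytokine of the family is a pair of chains. The p40 chain encoded by Il12b joins the p35 chain of Il12a to form IL-12, or the p19 chain of Il23a to form IL-23, whereas the Ebi3 chain joins the p28 chain of Il27 to form IL-27. IL-12 drives the Th1 type of T cell response and interferon gamma, IL-23 maintains Th17 cells, and IL-27 can both promote and limit T cell responses. Macrophages and dendritic cells make these chains after contact with microbial products, and whether a dimer is secreted depends on both of its chains being present in one cell. RNA levels of single chains, which are what was measured here, do not give the amount of any dimer.

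The table gives normalised expression as the authors deposited it. The values were read as log2, so that a difference of 1 is a doubling, and every fold given rests on that reading. Within a group, the correlation of any 2 libraries over genes, which are not independent replicates, was 0.995 to 0.998. The RNA of the targeted gene ran partly with and partly against its label. Fos rose by 2.41 after 0.5 h of LPS in the libraries labelled LysM-Cre, whereas under the FosKO label it stayed flat, with group means from 12.60 to 12.80, and its response after 0.5 h was smaller, at -2.26 (adjusted p = 1.376e-09 in limma). In level Fos was higher in the libraries labelled FosKO than in those labelled LysM-Cre by 1.49 before LPS, 1.64 after 1 h and 3.29 after 2 h, and lower after 0.5 h, with a log2 difference of -0.77. With a single value per gene, deleted and retained parts of Fos cannot be told apart. Lyz2, the locus that holds Cre, was 4.89 to 5.17 higher under the FosKO label. The RNA of the Cre locus thus differed along with the label in every comparison of the labels, and its part in the differences below was not tested. The genotypes are therefore called here by their labels, and every direction below is that of libraries labelled FosKO against libraries labelled LysM-Cre. Of 6 macrophage markers, Adgre1, Csf1r, Cd68 and Itgam lay between 14.16 and 15.38 in every library. Before LPS Adgre1 (-0.15), Csf1r (-0.14) and Itgam (-0.19) were called lower under the FosKO label and Cd68 (0.21) higher, and after 2 h Cd68 alone of these 4 was called (0.17). Fcgr1 (12.20 to 13.70) and Mertk (9.07 to 10.99) were lower in level and were higher under the FosKO label, by 0.65 and 0.97 before LPS and by 0.73 and 1.65 after 2 h. The B cell markers Cd79a, Ms4a1 and Pax5 and the neutrophil marker Ly6g lay below the minimum for testing. The libraries also fell into a set of 5, all from 0.5 or 1 h, with low 18S ribosomal RNA (Rn18s-rs5 from 16.65 to 17.00) and a set of 19 with high 18S (18.57 to 19.39). Values within each set are given where they bear on a member.

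The 5 genes lie on separate chromosomes of the mouse build GRCm38 and are all protein coding. Il12a (ENSMUSG00000027776) is at chr3:68690644-68698547 on the plus strand and Il12b (ENSMUSG00000004296) at chr11:44400063-44414033 on the plus strand. Il23a (ENSMUSG00000025383) is at chr10:128296139-128298752 on the minus strand. Il27 (ENSMUSG00000044701) is at chr7:126589010-126594941 on the minus strand and Ebi3 (ENSMUSG00000003206) at chr17:55952640-55957022 on the plus strand. RefSeq promoter sequences were matched by symbol for 3 of the 5, namely Il12a, Il12b and Ebi3. The 250 bases before the start are printed for Il12b and Ebi3, the receptor-like chains of the family, because their rises after 2 h of LPS were the largest and the smallest of the 5 on the log2 scale. Capitals mark matches to the motifs searched, and both sequences read 5′ to 3′ on the plus strand of GRCm38.p6.
Il12b, chr11:44399813-44400062: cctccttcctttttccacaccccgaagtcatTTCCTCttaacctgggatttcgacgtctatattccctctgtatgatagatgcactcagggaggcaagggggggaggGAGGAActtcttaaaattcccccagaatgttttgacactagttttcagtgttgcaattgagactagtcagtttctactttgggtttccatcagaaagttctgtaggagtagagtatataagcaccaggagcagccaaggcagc
Ebi3, chr17:55952373-55952622: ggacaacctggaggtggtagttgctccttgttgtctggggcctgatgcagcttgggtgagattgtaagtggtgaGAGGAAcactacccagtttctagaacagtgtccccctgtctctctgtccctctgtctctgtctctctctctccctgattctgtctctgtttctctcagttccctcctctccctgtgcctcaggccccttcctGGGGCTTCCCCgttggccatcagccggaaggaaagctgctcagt

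Matches to 6 motifs were searched on both strands of these windows, and the share of all 32851 RefSeq windows of 250 bases that hold each one is given with it. They were AP-1 (TGANTCA, the element bound by Fos and Jun dimers, in 6.75% of windows), CRE (TGACGTCA, 1.55%), NF-kB (GGG and CC around any 5 bases, 45.8%), ISRE (GAAA given 2 times around any 2 bases, the interferon-stimulated response element, 2.98%), C/EBP (TTGCNNAA, 9.56%) and ETS (GAGGAA, the core bound by PU.1, 23.3%). The Il12b window held 2 ETS matches, which begin 219 and 143 bases before the start. The Ebi3 window held 1 ETS match, 176 bases before the start, and NF-kB matches that overlap each other and begin 44 and 43 bases before it. Of the 2 windows listed for Il12a, the one at chr3:68691174-68691423 held overlapping NF-kB matches at 113 and 112 bases before its start, and the one at chr3:68690394-68690643 held none of the 6 motifs. The NF-kB letters overlap themselves in both genes, so the matches are not separate sites. The letters of AP-1, CRE, ISRE and C/EBP were in none of these 4 windows, which says nothing of elements elsewhere or of other spellings.

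The first comparison asks when and how far LPS changed each subunit. By 2 h Il12b and Il27 had risen the most of the 5 and stood above their 1 h levels, whereas after 1 h the rise of Il23a exceeded that of Il27 under both labels and that of Il12b under the LysM-Cre label. Il23a did not rise further from 1 to 2 h, Ebi3 rose modestly from a high start, and Il12a rose only by 2 h, from a level under the minimum for testing. Il12a passed the filter through its 2 h values, so it is left out of the counts of LPS rises. In the libraries labelled LysM-Cre, 1 of the other 4 subunits was called higher after 0.5 h, 4 after 1 h and 4 after 2 h, where the share of all tested genes called higher was 5.09%, 19.2% and 30.6%. Under the FosKO label the counts were 2, 4 and 4, beside 4.45%, 17.6% and 32.6% of all tested genes. A call means an adjusted p under 0.05 in limma, with Benjamini-Hochberg adjustment over all tested genes. No subunit was called lower than before LPS. Without a filter on low values all of these subunit calls stood. Of all genes called against 0 h under the LysM-Cre label, 70.3%, 53.8% and 50.3% were higher after 0.5, 1 and 2 h. The others were lower. Under the FosKO label the shares higher were 75.2%, 54.0% and 52.5%.

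**Figure D1:**
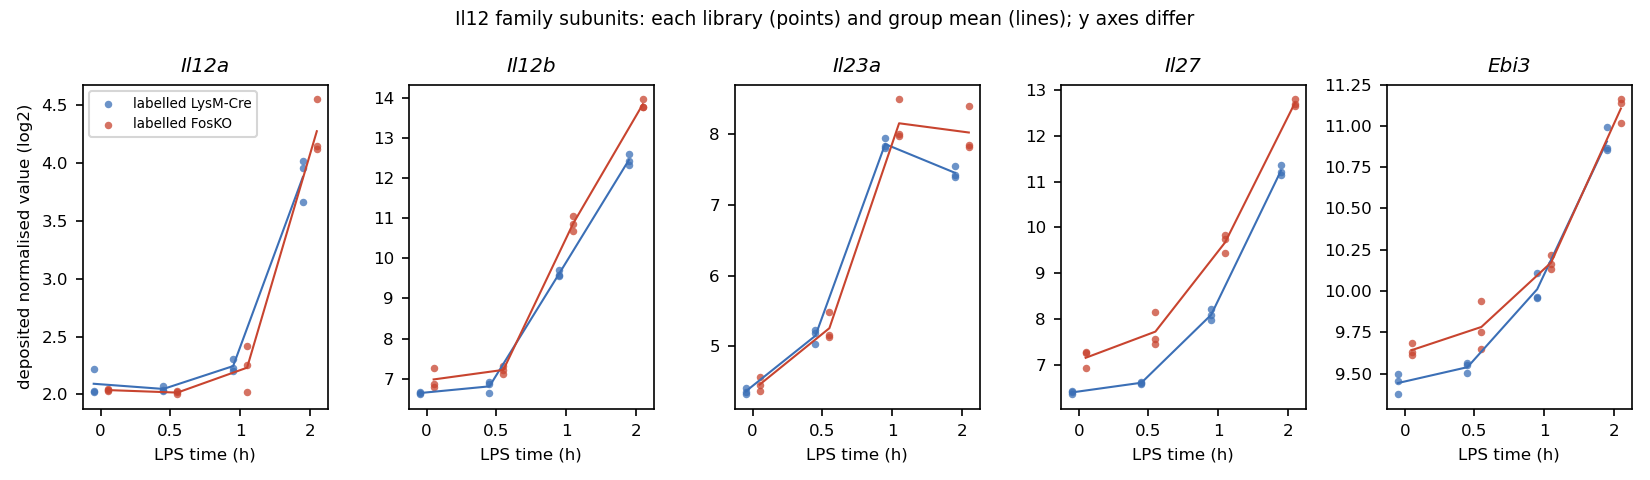
Deposited log2 value of each of the 5 subunit genes (y axis, a scale of its own in each panel) against LPS time in hours (x axis, not to scale), with 1 point per library, 3 per group, and lines through the group means; blue marks libraries labelled LysM-Cre and red those labelled FosKO. The red points lie above the blue ones at every time for Il12b, Il27 and Ebi3, whereas those of Il12a separate upward only after 2 h, and Il23a levels off after 1 h.

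Il12b encodes p40, the chain shared by IL-12 and IL-23. Under the LysM-Cre label its values were 6.64, 6.68 and 6.61 before LPS and 6.87, 6.92 and 6.64 after 0.5 h. They reached 9.59, 9.70 and 9.56 after 1 h and 12.33, 12.42 and 12.59 after 2 h. The groups at 0 and 0.5 h overlapped and the later ones stood clear of them. The rise over 0 h was 2.97 (SE 0.11, adjusted p = 3.728e-15 in limma) after 1 h and 5.80 (SE 0.11, adjusted p = 3.450e-20) after 2 h, a 55.8-fold increase. That was the rise ranked 2 among the 13901 tested genes. Under the FosKO label the values were 6.80, 6.88 and 7.27 before LPS, 7.12, 7.21 and 7.33 after 0.5 h, 10.68, 10.85 and 11.05 after 1 h, and 13.77, 13.77 and 13.96 after 2 h. Here too the values at 0 and 0.5 h overlapped and those at 1 and 2 h did not. The rise was 3.88 after 1 h and 6.85 (SE 0.11, adjusted p = 3.363e-21 in limma) after 2 h, a 116-fold increase and the rise ranked 1 in those libraries.

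Il27 encodes p28, the cytokine chain of IL-27. Under the LysM-Cre label its values were 6.41, 6.42 and 6.35 before LPS and 6.63, 6.61 and 6.58 after 0.5 h. They were 8.21, 7.97 and 8.09 after 1 h and 11.20, 11.14 and 11.36 after 2 h. The 0.5 h group stood just above the 0 h group, by 0.21, which did not pass the test (adjusted p = 0.466 in limma). The rise was 1.70 after 1 h and 4.84 (SE 0.13, adjusted p = 1.366e-17 in limma) after 2 h, a 28.7-fold increase. Under the FosKO label the values were 6.93, 7.27 and 7.25 before LPS, 7.46, 7.57 and 8.14 after 0.5 h, 9.44, 9.75 and 9.83 after 1 h, and 12.69, 12.66 and 12.80 after 2 h. No 2 neighbouring times overlapped. The rise was already called after 0.5 h, at 0.57 (SE 0.13, adjusted p = 0.00941 in limma), though it was 0.36 without replicate 3 after 0.5 h and 0.46 without replicate 1 before LPS, and then not called. Nor was it called with only those 2 groups in the fit (adjusted p = 0.281 in limma). It reached 2.52 after 1 h and 5.56 after 2 h, a 47.3-fold increase.

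Il23a encodes p19, the chain particular to IL-23. Under the LysM-Cre label its values were 4.32, 4.41 and 4.36 before LPS and 5.19, 5.03 and 5.23 after 0.5 h. They were 7.81, 7.83 and 7.95 after 1 h and 7.42, 7.39 and 7.56 after 2 h, so that the 3 libraries after 2 h lay below the 3 after 1 h. The rise after 0.5 h was 0.79 (SE 0.14, adjusted p = 7.785e-04 in limma). Il23a was the only one of the 5 subunits called after 0.5 h in both labels. It stood 3.50 above 0 h after 1 h, an 11.3-fold increase ranked 22 among tested genes, and 3.09 above it after 2 h. The step from 1 to 2 h was -0.41 (SE 0.14, adjusted p = 0.0214 in limma), a step called lower in 24.8% of all tested genes, and was not called without replicate 3 after 1 h or without replicate 1 or 2 after 2 h. Under the FosKO label the values were 4.45, 4.56 and 4.36 before LPS, 5.13, 5.48 and 5.16 after 0.5 h, 7.97, 8.0 and 8.50 after 1 h, and 7.86, 7.82 and 8.41 after 2 h. Replicate 3 was the highest of its group at both 1 and 2 h, and those 2 groups overlapped. The step from 1 to 2 h was -0.13 (adjusted p = 0.478 in limma), with a 95% interval from -0.43 to 0.17. Whether this step differed between the labels was not tested.

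Ebi3 encodes the receptor-like chain of IL-27. Its values in the libraries labelled LysM-Cre were 9.50, 9.46 and 9.38 before LPS, 9.55, 9.50 and 9.56 after 0.5 h, 9.96, 9.97 and 10.11 after 1 h, and 10.86, 10.86 and 10.99 after 2 h. The groups rose in order, and those at 0 and 0.5 h met at 9.50 to the second decimal. The rise was 0.57 after 1 h and 1.46 (SE 0.06, adjusted p = 1.389e-14 in limma) after 2 h, a 2.75-fold increase. Under the FosKO label the values were 9.63, 9.61 and 9.68 before LPS, 9.75, 9.65 and 9.94 after 0.5 h, 10.17, 10.22 and 10.13 after 1 h, and 11.16, 11.01 and 11.14 after 2 h. The groups at 0 and 0.5 h overlapped. The rise was 0.53 after 1 h and 1.46 after 2 h, again a 2.75-fold increase.

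Il12a encodes p35, the chain that joins p40 to form IL-12. It was low before 2 h. Under the LysM-Cre label its values were 2.22, 2.02 and 2.03 before LPS, 2.03, 2.04 and 2.07 after 0.5 h, 2.31, 2.20 and 2.23 after 1 h, and 3.66, 4.02 and 3.95 after 2 h. In those labelled FosKO they were 2.04, 2.04 and 2.03, then 2.00, 2.03 and 2.02, then 2.02, 2.41 and 2.26, and after 2 h 4.15, 4.12 and 4.55. All values before 2 h lay between 2.00 and 2.41 and all values after 2 h were above 3.6. The gene reached the minimum for testing in 7 of 24 libraries, 6 of them after 2 h, so it was tested only because of the time at which it was high, and its rise is a description. That rise was 1.78 (SE 0.12) in the libraries labelled LysM-Cre and 2.23 (SE 0.12) in those labelled FosKO. The values resemble a regularised log, which pulls genes with few reads towards their own mean, and if they are one, a change in a gene as low as Il12a is understated.

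Levels of different genes were compared per kilobase of exon on the linear scale, with exon lengths from 1021 bases (Il27) to 2247 bases (Il23a). Before LPS the order was Ebi3, Il27, Il12b, Il23a and Il12a under both labels. In the libraries labelled LysM-Cre before LPS these levels were 604 ± 25.6 for Ebi3, 82.4 ± 2.03 for Il27, 50.8 ± 1.19 for Il12b, 9.16 ± 0.273 for Il23a and 2.51 ± 0.203 for Il12a (SD, n = 3). By 2 h Il12b and Il27 had passed Ebi3. The levels after 2 h were then 2844 ± 263 for Il12b, 2366 ± 191 for Il27, 1663 ± 91.3 for Ebi3, 78.3 ± 4.88 for Il23a and 8.68 ± 1.09 for Il12a. In the libraries labelled FosKO after 2 h they were 7438 ± 567, 6593 ± 338, 1910 ± 103, 118 ± 28.5 and 11.5 ± 1.98 in the same order. Neighbours in the order did not overlap in 7 of the groups. The exception was the group labelled FosKO after 1 h, where Ebi3 (973 to 1032) overlapped Il12b (837 to 1078) and Il12b overlapped Il27 (679 to 889). The p40 chain thus stood far above both of its partners p19 and p35 at every time, and the 2 chains of IL-27 changed places between 1 and 2 h.

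**Figure D2:**
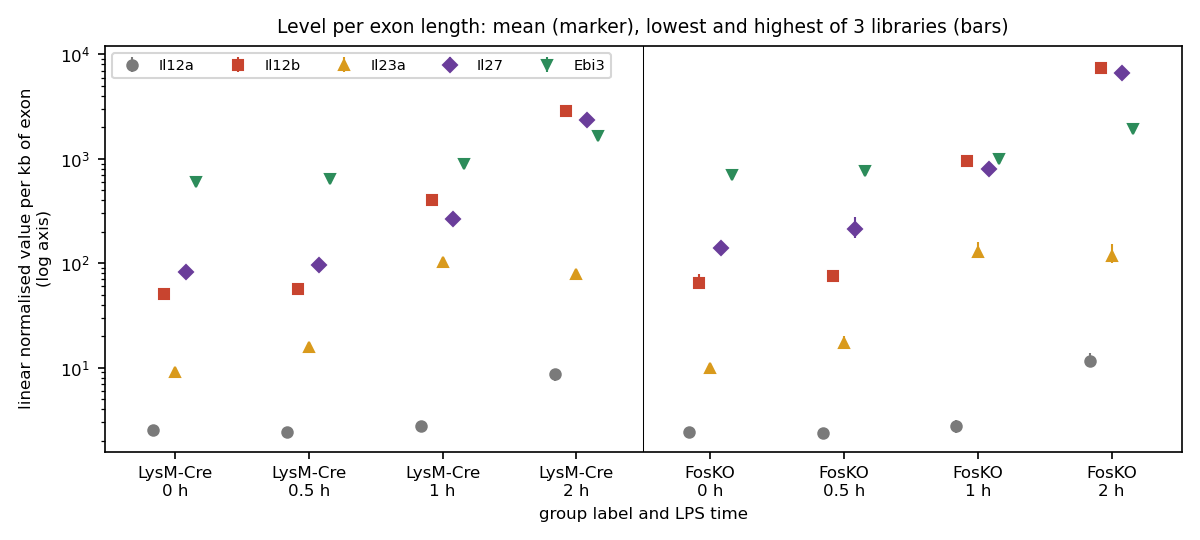
Linear normalised value per kilobase of exon (y axis, log scale) for the 5 subunit genes in each of the 8 groups (x axis); markers are means and bars span the lowest to the highest of 3 libraries, hidden where shorter than the marker. Ebi3 leads at 0 and 0.5 h under both labels, Il12b and Il27 lead after 2 h, and Il12a is lowest throughout.

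The second comparison asks whether the RNA of each subunit depended on the genotype label at a given time. Under the FosKO label Il12b, Il27 and Ebi3 passed the test for a higher level at each of the 4 times. Il12a and Il23a passed it after 2 h only, although the Il23a groups did not overlap after 1 h either. The share of all tested genes whose groups did not overlap is not given here, so the lack of overlap is a description. The difference in Il27 was 1.69-fold before LPS and 2.79-fold after 2 h, that in Il12b 1.27-fold and 2.62-fold, and that in Ebi3 1.15-fold at both. Of the 4 subunits other than Il12a, 3 were called higher at 0, 0.5 and 1 h and 4 after 2 h. Il12a, which lay under the minimum for testing in all but 1 of the earlier libraries and above it in all 6 of the 2 h libraries, was called higher after 2 h. Among all tested genes the share called higher was 19.5%, 21.2%, 18% and 24.4% at these times. No subunit was called lower, beside 15.9%, 19.7%, 15.9% and 20.3% of all tested genes. The median difference over the 5 subunits, Il12a included, was 0.20 before LPS and 0.57 after 2 h, beside a median over all tested genes of 0.00249 and 0.00399. Changes of at least 2-fold were fewer. Among the subunits 0, 1, 2 and 2 were called higher by at least 1 on the log2 scale at the 4 times, beside 1.02%, 1.49%, 1.15% and 1.43% of all tested genes. In bulk RNA a difference in level cannot be told apart from a difference in the number of cells that make the RNA.

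Il27 showed the widest gap between the labels. Its lowest library labelled FosKO exceeded its highest library labelled LysM-Cre at every time. The log2 difference was 0.76 before LPS (SE 0.13, adjusted p = 1.228e-04 in limma), 1.12 after 0.5 h (adjusted p = 9.086e-07), 1.58 after 1 h (adjusted p = 1.328e-08) and 1.48 after 2 h (adjusted p = 1.751e-08). At 1 h this was the positive difference ranked 58 of 13901. Within the low and high sets of 18S content the difference was 0.88 and 1.23 after 0.5 h and 1.41 and 1.58 after 1 h, each set holding only 1 or 2 libraries per label. Across the 8 groups the order ran from 0 h and 0.5 h labelled LysM-Cre to 0 h and 0.5 h labelled FosKO, so untreated cells labelled FosKO stood above cells labelled LysM-Cre that had seen LPS for 0.5 h.

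For Il12b the groups also did not overlap at any time. The log2 difference was 0.34 before LPS (SE 0.11, adjusted p = 0.0182 in limma), 0.41 after 0.5 h (adjusted p = 0.00431), 1.25 after 1 h (adjusted p = 2.242e-08) and 1.39 after 2 h (adjusted p = 2.863e-09). The gap before LPS was the least secure. Without FosKO replicate 3 before LPS it was 0.20 (adjusted p = 0.155 in limma), without LysM-Cre replicate 3 it was 0.32, and neither was called. With only the groups compared in the fit its adjusted p was 0.0766. The later gaps kept their calls when any one library was left out. Within the low and high 18S sets the difference was 0.48 and 0.38 after 0.5 h and 1.05 and 1.36 after 1 h. At 2 h this was the positive difference ranked 83 among tested genes.

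Ebi3 differed by a small amount at each time. The log2 difference was 0.20 before LPS (SE 0.06, adjusted p = 0.0138 in limma), 0.24 after 0.5 h (adjusted p = 0.00277), 0.16 after 1 h (adjusted p = 0.0450) and 0.20 after 2 h (adjusted p = 0.0106). Its groups did not overlap at any time, although the highest library labelled LysM-Cre after 1 h, at 10.11, lay just under the lowest labelled FosKO, at 10.13. The call after 1 h was lost when any of 5 of the 6 libraries was left out, and after quantile normalisation neither the gap after 1 h (0.11) nor that after 2 h (0.10) was called. The call before LPS was lost without replicate 3 of either label (0.17 and 0.18), and that after 2 h without FosKO replicate 1 (0.17). Over all tested genes 39.2% had a larger absolute difference than Ebi3 after 1 h.

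Il23a and Il12a were called after 2 h only. The difference in Il23a was 0.10 before LPS, 0.11 after 0.5 h and 0.29 after 1 h (adjusted p = 0.121 in limma), where the groups did not overlap, and 0.57 after 2 h (SE 0.14, adjusted p = 0.00260), a 1.48-fold difference. Within the low and high 18S sets the Il23a difference was -0.10 and 0.21 after 0.5 h, of opposite direction, and 0.08 and 0.44 after 1 h. The difference in Il12a was -0.05, -0.03 and -0.01 at the first 3 times, with 95% intervals within -0.30 and 0.23, and after 1 h it was -0.19 and 0.03 within the low and high 18S sets. It was 0.40 after 2 h (SE 0.12, adjusted p = 0.00951 in limma), a 1.32-fold difference. That call ended without LysM-Cre replicate 1 (0.29), without FosKO replicate 3 (0.26), and with only the groups compared in the fit (adjusted p = 0.0640).

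**Figure D3:**
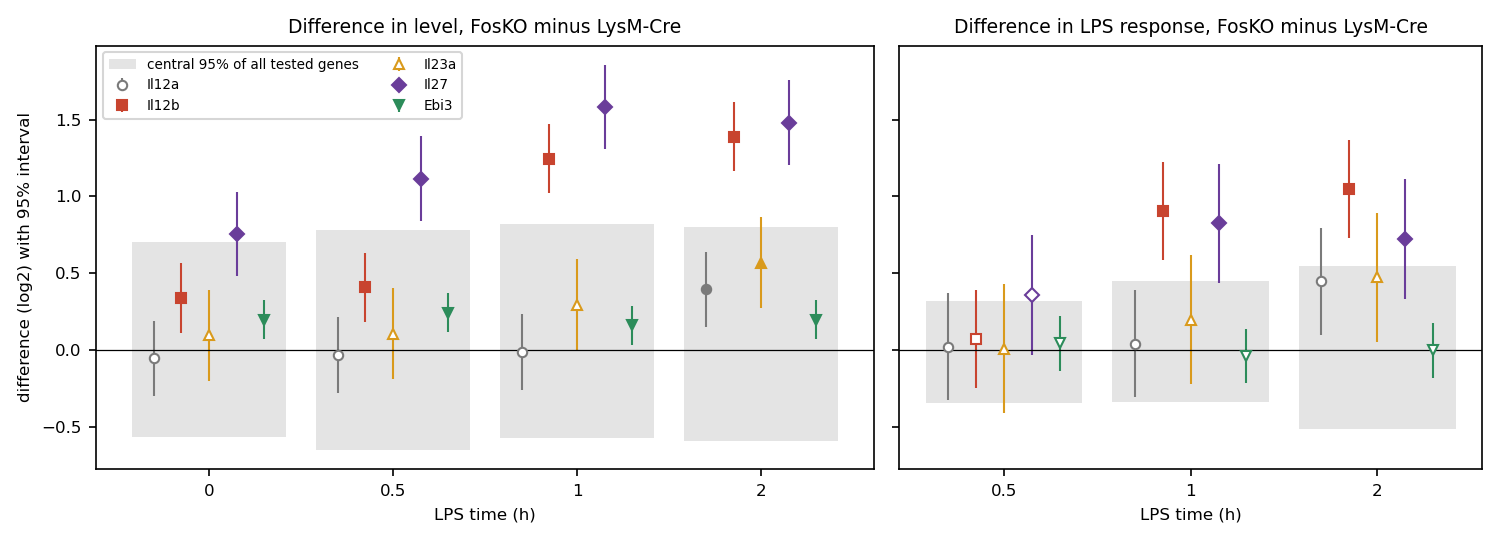
Log2 difference, libraries labelled FosKO minus LysM-Cre (y axis), for the 5 subunits in level at each LPS time (left) and in the LPS response against 0 h (right), with times in hours on the x axes; bars are 95% intervals from limma, filled markers were called, and grey boxes span the central 95% of all 13901 tested genes. Il27 lies above the grey boxes at every time in both panels, although its response at 0.5 h was not called, and Il12b does so at 1 and 2 h in both. Ebi3 sits near 0.20 in level at 0 and 2 h and near 0 in response.

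The third comparison tests whether the response to LPS itself differed between the labels, which a difference in level does not show when it is present before LPS. It takes the rise over 0 h in the libraries labelled FosKO minus that in the libraries labelled LysM-Cre, and its 3 times share the 0 h libraries. The responses of Il12b and Il27 were larger in the libraries labelled FosKO at 1 and 2 h. The counts called were 0, 2 and 2 of the 4 subunits other than Il12a at 0.5, 1 and 2 h, all positive, where 0.0144%, 0.489% and 7.27% of all tested genes were called with a positive difference. At 0.5 h limma found none of these 4 at an unadjusted p under 0.05 either.

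The response of Il12b was larger by 0.91 after 1 h (SE 0.15, adjusted p = 0.00176 in limma) and by 1.05 after 2 h (SE 0.15, adjusted p = 6.436e-05). That of Il27 was larger by 0.82 after 1 h (SE 0.19, adjusted p = 0.0277 in limma) and by 0.72 after 2 h (SE 0.19, adjusted p = 0.0109). Both genes were thus called higher under the FosKO label before LPS, Il12b less securely, and both gaps were wider after 1 and 2 h. Whether these 2 genes differed in how far the gap widened was not tested. The Il27 call after 1 h ended in 8 of the 12 fits that left out one of the libraries involved, with values from 0.71 to 0.94 over the 12, and that after 2 h ended under quantile normalisation. The response of Il23a after 2 h differed by 0.47 (adjusted p = 0.130 in limma, 95% interval 0.05 to 0.89) and was not called. That of Il12a differed by 0.45 and was not called either. Il12a lay under the minimum for testing before LPS and passed the filter through its 2 h values, so its value is a description. For Ebi3 the fitted rises after 2 h under the labels were equal to the second decimal, and the 95% interval of their difference ran from -0.18 to 0.18. Whether the 2 chains of IL-27 differed from each other in this respect was not tested.

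The other genes of the pathway were counted over lists of receptor chains, of the kinases and STATs that act on them, and of factors known to drive or to restrain transcription of these subunits. Among receptor chains, 4 of 5 could be tested, since Il23r did not pass the filter. After 2 h of LPS the FosKO label went with higher values in 2 of them and lower values in the other 2, all called, where 24.4% of all tested genes were called higher and 20.3% lower, with a list median of 0.16 beside 0.00399 for all tested genes. Il12rb1, the chain common to the IL-12 and IL-23 receptors, was higher by 1.14 before LPS and 1.27 after 2 h (adjusted p = 1.176e-05 in limma), at a low level. Il12rb2, the signalling chain for IL-12, was higher by 0.51 and 0.46 at these times. Il27ra, the receptor chain for IL-27, was lower, with differences of -0.69 before LPS and -0.64 after 2 h (adjusted p = 9.466e-05 in limma). Il6st, which encodes its partner gp130, differed by -0.14 after 2 h, a call lost under median centring, with no filter and in 5 of the 6 fits that left out a library.

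Among 5 kinases and STATs, 4 were called higher at 0, 0.5 and 2 h and 3 after 1 h, and none was called lower, beside the 18% to 24.4% of all tested genes called higher and 15.9% to 20.3% called lower at these times. The list median was 0.37 after 2 h. Jak2, which binds the IL-12 receptor, was higher by 0.44 before LPS (adjusted p = 0.00103 in limma) and 0.52 after 0.5 h. Tyk2, a kinase common to the receptors of this family, was higher by 0.34 before LPS, 0.45 after 0.5 h and 0.41 after 1 h. Stat3, used by IL-23 and IL-27, was higher by 0.18 after 1 h and 0.56 after 2 h (adjusted p = 1.732e-07 in limma). Stat4, which carries the IL-12 signal, was higher by 0.45 after 2 h (adjusted p = 0.0214 in limma), at a low level. The Stat4 call ended without LysM-Cre replicate 2 (0.27) and without FosKO replicate 1 (0.33), and that of Stat3 after 1 h when any of 4 libraries was left out. Under quantile normalisation the difference of Jak1 after 2 h changed sign to -0.047 and was not called. The response to LPS after 2 h was larger in Stat3 by 0.39 (adjusted p = 0.00243 in limma), the 1 call of the 5, where 7.27% of all tested genes were called with a positive and 7.70% with a negative difference. The response difference was 0.53 for Stat4 (adjusted p = 0.121 in limma) and -0.37 for Jak2 (adjusted p = 0.0735), and both were called with the replicate number as a block (adjusted p = 0.0302 and 0.0245).

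Of 10 factors known to drive these genes, 6, 7, 3 and 7 were called higher at 0, 0.5, 1 and 2 h, beside 19.5%, 21.2%, 18% and 24.4% of all tested genes, and none was called lower. Irf8, a factor that acts with Irf1 and PU.1 on Il12b, was higher by 0.31 after 1 h and 1.33 after 2 h (adjusted p = 3.069e-15 in limma). Its response after 2 h was larger by 1.22 (adjusted p = 3.409e-11). Nfkbiz, an inducible partner of NF-kB, was higher by 0.23 after 1 h and 0.39 after 2 h. Irf1 was higher by 0.61 before LPS and 0.33 after 0.5 h, and Cebpb by 0.40 and 0.36 at those times. The earlier Cebpb call was lost without replicate 3 of either label (0.27 and 0.34), and the later one in 5 of the 6 fits that left out a library. After 2 h the Cebpb difference was -0.26 (adjusted p = 0.127 in limma), and its response to LPS was smaller, at -0.66 (adjusted p = 0.0210), a call lost without any one of 4 libraries. The Cebpb difference after 2 h was called lower without replicate 3 of the LysM-Cre label (-0.37) or of the FosKO label (-0.39). The Irf1 call after 0.5 h was lost without FosKO replicate 3 (0.22). Spi1, which encodes PU.1, changed sign from 0.089 to -0.036 before LPS under quantile normalisation, and Nfkb1 after 2 h from 0.15 to -0.0089. After that normalisation Rel at 0.5 and 1 h, Nfkbiz after 0.5 h, Irf5 after 1 h and Spi1 after 2 h were called lower, at -0.15 to -0.09. The direction of the smaller members of this list thus depends on the scaling, whereas that of Irf8 after 2 h was kept.

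Of 6 known restraints, 3, 3, 4 and 4 were called higher and 0, 2, 1 and 1 lower at the 4 times, where 19.5%, 21.2%, 18% and 24.4% of all tested genes were called higher and 15.9%, 19.7%, 15.9% and 20.3% lower. Il10, a cytokine that represses Il12b, was lower, with differences of -0.75 after 0.5 h, -1.36 after 1 h and -1.70 after 2 h (adjusted p = 3.763e-09 in limma). Its response after 2 h was smaller, at -1.44 (adjusted p = 2.141e-05), where 7.70% of all tested genes were called with a negative difference. Socs1, an inhibitor of cytokine signalling, was higher by 0.66 before LPS, 1.08 after 0.5 h and 0.85 after 2 h. Nfil3, which can repress Il12b, was higher by 0.29 before LPS, 0.37 after 0.5 h and 0.64 after 1 h, and Atf3, a repressor of several cytokine genes, by 0.72 after 1 h. Bcl6 was higher by 0.83 after 2 h, and Socs3 was lower after 0.5 h (-0.41) and, under quantile normalisation, after 1 h (-0.24). The list of restraints therefore moved in both directions, and its single member called lower at 1 and 2 h was Il10.

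**Figure D4:**
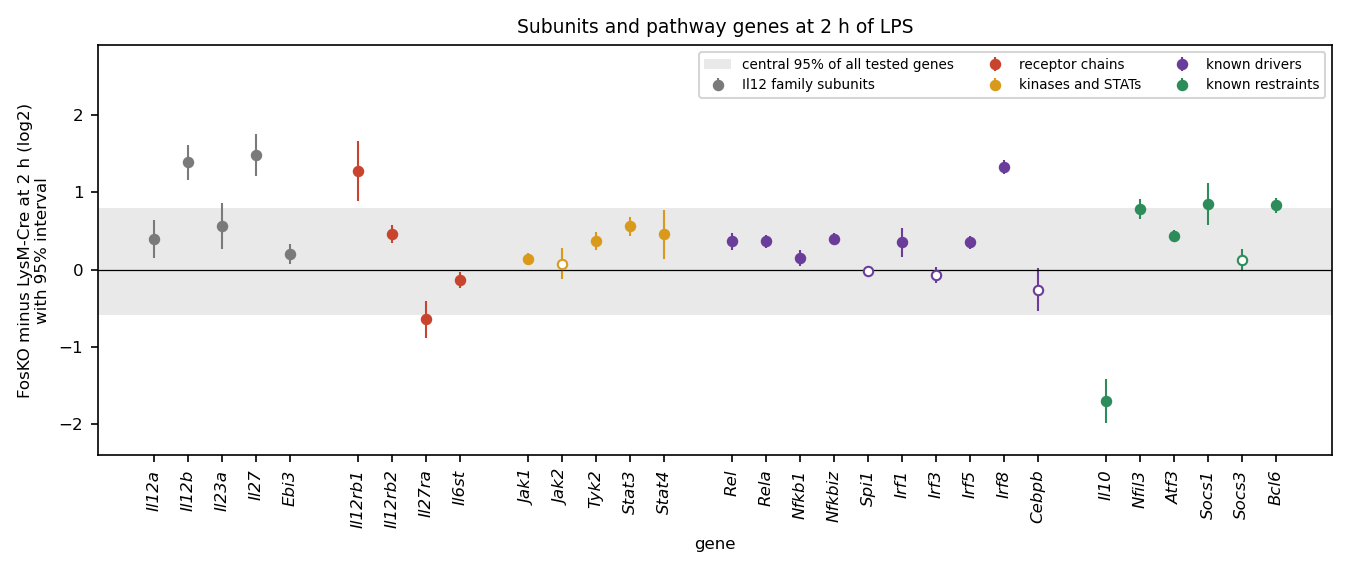
Log2 difference after 2 h of LPS, libraries labelled FosKO minus LysM-Cre (y axis), for the subunits and for the tested receptor chains, kinases and STATs, known drivers and known restraints (x axis); bars are 95% intervals from limma, filled markers were called, and the grey band spans the central 95% of all tested genes. Il12b (1.39), Il27 (1.48), Il12rb1 (1.27) and Irf8 (1.33) lie highest and Il10 (-1.70) lowest.

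Markers of other cells that could be present in such cultures were summed on the linear scale. Of 6 dendritic cell markers, 4 passed the filter and Flt3 and Siglech did not. The sum over all 6 rose with LPS, from 44.1 to 45.5 before LPS to 131 to 140 after 2 h in the libraries labelled LysM-Cre, and from 44.4 to 55.1 to 103 to 107 in those labelled FosKO. After 2 h the sum was lower under the FosKO label through Zbtb46 (-0.96, adjusted p = 1.210e-04 in limma), while Xcr1, Clec9a and Ccr7 differed by 0.04, 0.16 and -0.03 and were not called. After 1 h Xcr1 (0.42) and Ccr7 (0.46) were called higher and none was called lower. Of 5 neutrophil markers, 4 were in the table and 3 tested, and their sum, mostly Csf3r, was 590 to 757 in the libraries labelled LysM-Cre and 1178 to 1843 in those labelled FosKO. Csf3r was higher by 0.99 after 2 h, whereas S100a8 (-0.60) and S100a9 (-1.07) were called lower. The T and NK cell sum, mostly Cd4, was 197 to 243 and 261 to 352, while Cd3e, Cd3g and Ncr1 stayed below 0 on the log2 scale in every library. Cd8a (0.38 to 0.66) and Klrb1c (1.63 to 2.39) lay above 0 but did not pass the filter. Of 4 fibroblast markers 2 were tested, and the sum stayed at or under 28.2. The part of the dendritic, neutrophil and Cd4 differences in the subunit differences was not tested.

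The genes whose log2 values followed each subunit most closely over the 24 libraries were named by Pearson's r among 10567 candidates (10568 for Il12a). The points share groups and processing, and r is a description. Il12b was closest to Clic4 (0.997), Edn1 (0.996) and Nup54 (0.995), and Il27 to Lcp2 (0.995), Sav1 (0.994) and Il6 (0.994). Ebi3 was closest to Dse, Ube2z and Kpna3 (each 0.992). Il23a was closest to Prr14 (0.986), Rel (0.985) and Nlrp3 (0.985), and Il12a to Fchsd2, Seh1l and Ppp2r1b (each 0.986). Il12a was flat before 2 h, so its r rests on the 2 h libraries, and Spearman's rho for these genes was 0.736, 0.686 and 0.723. Between the subunits r was 0.984 for the IL-27 pair Il27 and Ebi3, 0.882 for the IL-12 pair Il12a and Il12b, and 0.878 for the IL-23 pair Il23a and Il12b. The lowest was 0.589, between Il12a and Il23a, the late and the early riser.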

How the data were processed

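RNA-seq libraries were prepared with the TruSeq kit and sequenced from a single end with strand kept. According to the study's methods and the submitters' processing notes, reads were mapped with STAR 2.5.2a and counted per gene with RSEM 1.2.31 on mm10 (GRCm38). The authors' notes list DESeq2 1.16.1. The methods name RefSeq genes, whereas the table carries Ensembl identifiers. The authors deposited normalised values, 1 per gene and library, which were read as log2 because they are not whole numbers and run from -2.22 to 19.39. The log base and the transformation are not given in the sources used here. No counts were used, the depth of each library is unknown, and errors come from the spread within groups alone.

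Genes were tested where 2 raised to the value reached 5 in 3 or more libraries. limma 3.58.1 in R 4.3.3 was fitted to all 24 libraries with 8 group means, no block and a variance trend (16 residual degrees of freedom). The design assumed normalised values, and the log2 values were used as deposited. P-values were adjusted by Benjamini-Hochberg over all 13901 tested genes of a comparison, and an adjusted p under 0.05 was called. The text of the study calls the libraries biological replicates, but nothing ties them to separate animals, and p-values measure only the spread between these libraries. With 3 against 3 the smallest two-sided p of an exact permutation test is 0.1, and none was used. The fit was tested on simulated data.

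The members, gene lists, motifs and alternatives were chosen with earlier results of these data known. From each pathway list the called genes with the largest difference were named, up to 2 in each direction per genotype comparison, together with any whose direction depended on the scaling. 1 gene of the kinase and STAT list and 1 B cell marker are not reported here. For likeness, the 3 genes with the highest Pearson r were taken among tested genes with a mean linear value of at least 50. Exon lengths are unions of exons in GENCODE vM21, and the promoter sequences are those of RefSeq for GRCm38.p6. Alternatives were other normalisations, offsets, filters, variance models and sets of libraries, and replicate blocks.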

Additional observations from a re-analysis of the deposited data

Results flagged for a closer look

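Among the values reported above for the subunits, the response to LPS differed between the genotype labels in 4, each by an interaction contrast in limma. Response differences called in other genes are given above and are not repeated here. The response of Il12b was larger in the libraries labelled FosKO by 0.91 after 1 h (adjusted p = 0.00176) and by 1.05 after 2 h (adjusted p = 6.436e-05). That of Il27 was larger by 0.82 after 1 h (adjusted p = 0.0277) and by 0.72 after 2 h (adjusted p = 0.0109). In all 4 comparisons the 3 libraries labelled FosKO lay above the 3 labelled LysM-Cre, before LPS and at the later time alike. The comparisons of a gene share its 0 h libraries, and the share of all tested genes whose groups stand apart like this is not given here.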

How the results depend on the processing

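Over the 5 subunits, 1545 values computed under the alternatives kept their side of the threshold, 36 lost a call and 2 gained one. Of these 1583 values 27 changed sign, none of them called under either setting. The cause of each loss was not tested. The transformation behind the values is unknown, and so is the depth of each library, since the study's methods give only a typical yield. Il12a could not be fitted under the stricter filter of 20.

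Under quantile normalisation Ebi3 was not called at 1 h (0.11, adjusted p = 0.169) or 2 h (0.10, adjusted p = 0.184), nor the response difference of Il27 at 2 h (0.51, adjusted p = 0.0689), and the genes called for the response difference at 0.5 h went from 16 to 25. The share of genotype calls that were higher fell to 42.8% (53.1% before) at 1 h and 43.0% (54.6% before) at 2 h. At 2 h it was 62.6% under median centring. Among pathway genes it turned Spi1 at 0 h (-0.036), Jak1 at 2 h (-0.047) and Nfkb1 at 2 h (-0.0089). With 5 added on the linear scale the response difference of Il12a at 2 h was 0.33 and passed the threshold, but this gene was tested only through its 2 h values. Ebi3 at 1 h (0.16) lost its call with no filter (adjusted p = 0.0767) and with no variance trend (adjusted p = 0.0592).

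With only the libraries of high 18S content Ebi3 at 1 h (0.22, adjusted p = 0.115), the response difference of Il27 at 1 h (0.83, adjusted p = 0.105) and the step of Il23a from 1 to 2 h labelled LysM-Cre (-0.35, adjusted p = 0.204) were not called. The genes called were then 2994 instead of 4708 between labels at 1 h, 3009 instead of 4970 for LPS at 1 h and 2010 instead of 3725 for the step from 0.5 to 1 h labelled LysM-Cre, and for the response difference 9 instead of 16 at 0.5 h and 93 instead of 169 at 1 h. With only the groups compared in the fit, calls were lost for Il12b at 0 h (0.34, adjusted p = 0.0766), Il12a at 2 h (0.40, adjusted p = 0.0640) and Il27 at 0.5 h of LPS labelled FosKO (0.57, adjusted p = 0.281). The genes called were then 301 instead of 823 for the latter comparison, 2471 instead of 3819 for the step from 0.5 to 1 h labelled FosKO, and 6 and 112 for the response difference at 0.5 and 1 h.

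Each library was left out in turn. Values ranged from 0.17 to 0.23 for Ebi3 at 0 h, 0.13 to 0.21 at 1 h and 0.17 to 0.24 at 2 h, from 0.26 to 0.47 for Il12a at 2 h, and from 0.20 to 0.43 for Il12b at 0 h. They ranged from 0.36 to 0.70 for Il27 at 0.5 h of LPS labelled FosKO, from 0.71 to 0.94 for its response difference at 1 h, and from -0.46 to -0.36 for the step of Il23a from 1 to 2 h labelled LysM-Cre. Il12b at 0.5 h of LPS labelled FosKO (0.15 to 0.38) was called only without replicate 3 at 0 h. Counts ranged from 542 (without FosKO replicate 3 at 0.5 h) to 960 genes for LPS at 0.5 h labelled FosKO, and from 9 (without LysM-Cre replicate 3 at 0.5 h) to 24 for the response difference at 0.5 h.

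Replicate numbers are shared by all groups. Same-numbered libraries correlated in their deviations at -0.53 to 0.71 over 42 pairs, with all 3 pairs above 0.1 in 2 of 14 comparisons, so the numbers were not taken to pair the libraries, although 15 of 24 libraries correlated best with their own number, a hint of pairing from the data. With the replicate number as a block, no subunit changed its call and Il12b at 2 h still differed by 1.39, while Il6st (-0.13), Nfkb1 (0.094), Spi1 (0.082) and Irf1 (0.22) at 1 h and the response differences of Stat4 and Jak2 at 2 h gained calls. A block within each genotype, chosen after seeing the data, raised the response difference count at 0.5 h from 16 to 25.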
